A study of Mus musculus with 7 samples.

Results

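Genes of selenium biology, 10 in all, were followed in primary hepatocytes of mice that lack *Wdr6*. They comprise 7 selenoprotein genes (*Selenop*, *Gpx1*, *Gpx4*, *Msrb1*, *Txnrd2*, *Dio1* and *Sephs2*) and 3 further genes of selenocysteine synthesis and insertion (*Secisbp2*, *Pstk* and *Sepsecs*). The genes were chosen by symbol, and all 10 were found among the 14819 rows of the table of read counts, *Selenop* under its current symbol. Hepatocytes, the parenchymal cells of the liver, were isolated from male mice by collagenase perfusion, kept overnight in William's E medium with fetal bovine serum and left untreated. RNA was sequenced from 4 samples labelled WT and 3 samples labelled Wdr6 knockout, which carry a whole-body CRISPR–Cas9 deletion of exon 2 of *Wdr6* (WDR6-WKO). The deletion is present in every cell type of the culture, not in hepatocytes alone. The labels give neither age nor strain. Male C57BL/6J mice aged 7 weeks were the default in the methods, and no other background or age is named there for the WDR6-WKO line. The samples are described as independent experiments without being tied to animals. The p-values therefore measure the spread between these samples.

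Selenoproteins contain selenocysteine, an amino acid that is encoded by the codon UGA, which otherwise stops translation. Selenocysteine is built on its own transfer RNA. Seryl-tRNA synthetase loads serine, PSTK phosphorylates it, and SEPSECS exchanges the phosphate for selenium taken from selenophosphate, which SEPHS2 makes. SECISBP2 binds a stem-loop in the 3′ end of the messenger RNA, the SECIS element, and recruits the elongation factor EEFSEC. The liver is the main source of selenoprotein P, the plasma protein that carries selenium to brain, testis and other tissues. SEPHS2 is itself a selenoprotein, so its own synthesis depends on the pathway that it serves.

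The UGA codons that are read as selenocysteine show how the 7 selenoproteins differ. GENCODE M21 (GRCm38) annotates such codons in 24 mouse genes, among them the 7 described here and none of *Secisbp2*, *Pstk* and *Sepsecs*. The coding sequence around the codon is given 5′ to 3′ as DNA, with the UGA of selenocysteine in capitals as TGA. For *Selenop* the first of its 10 codons is shown, and the window of *Txnrd2* runs past its stop codon.
Selenop: cttcaagccagcTGAtacttgtgtcttctg
Gpx1: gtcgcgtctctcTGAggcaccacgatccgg
Gpx4: gtggcctcgcaaTGAggcaaaactgacgta
Msrb1: caatcaagattcTGAatatttagcagctca
Txnrd2: gtgactggttgcTGAggctaagtcaccatc
Dio1: ggcagttgcaccTGAccttcatttcttctc
Sephs2: ggcatgaagggcTGAggctgcaaggtcccc

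The codon stands at residue 47 of 201 in GPX1, 73 of 197 in the GPX4 isoform used here, 126 of 257 in DIO1, 95 of 116 in MSRB1, 63 of 452 in SEPHS2 and 526 of 527 in TXNRD2. In TXNRD2 it is thus the last residue but one, directly before a glycine and the stop codon. Selenoprotein P has 10 selenocysteines in 380 residues, the first at residue 59 and the others from residue 259 to 377. The end of its reading frame is shown because 5 of the 10 codons lie within its last 31 codons. From residue 350 to the stop codon it reads as follows, again with the selenocysteine codons in capitals.
Selenop end: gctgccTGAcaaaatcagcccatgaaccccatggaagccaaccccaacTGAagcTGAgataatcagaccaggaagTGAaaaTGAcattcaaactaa

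**Figure D1:**
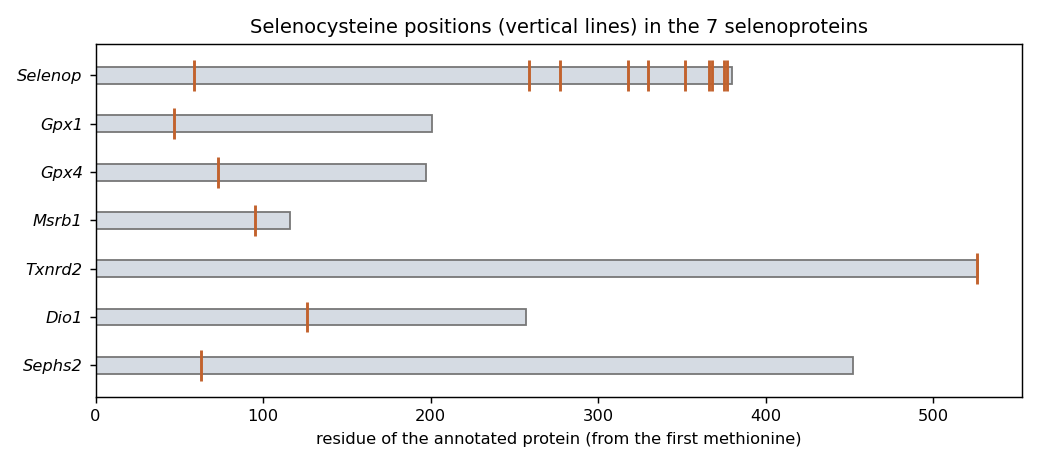
The horizontal axis gives the residue number in each annotated protein, drawn to scale as a bar, and the vertical lines mark selenocysteines. Selenoprotein P has 10 lines, most of them towards its end, and the other 6 proteins have 1 line each.

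A UGA far enough upstream of the last exon junction can expose a messenger RNA to nonsense-mediated decay. Some selenoprotein mRNAs undergo this quality control when selenium is short. From the UGA to the last exon junction there are 105 bases in *Gpx1*, 342 in *Gpx4*, 303 in *Dio1*, 34 in *Msrb1* and 357 for the first codon of *Selenop*. In *Txnrd2* the codon lies in the last exon, and the *Sephs2* transcript has 1 exon. Which of these distances suffice for such decay was not tested.

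The libraries held between 17816913 and 23668940 counted reads. Levels are given as CPM, the read count scaled to a common library size with TMM factors, and WDR6-WKO was compared with WT by edgeR's quasi-likelihood test over 14779 genes with Benjamini-Hochberg adjustment. *Wdr6* itself was at 40.6 to 49.0 CPM in WT and 2.23 to 2.58 CPM in WDR6-WKO libraries. WDR6-WKO replicate 3 stood apart from the other libraries of its genotype, with a chi-square of at least 14.3 per gene against either of them, where the other libraries had 3.80 to 5.14 against their nearest neighbour. Without it 4233 genes passed edgeR's adjusted p of 0.05, against 1897 with it. Markers of liver cell types were read in the same libraries. All 10 hepatocyte markers were counted, with *Alb* the highest at 7366 CPM in WT, and *Tat* the lowest at 0.792 CPM in WDR6-WKO. Markers of Kupffer cells (12 of 12), stellate cells (8 of 8), sinusoidal endothelial cells (8 of 8) and cholangiocytes (5 of 5) were also counted. Being counted therefore does not check the hepatocyte label. The most abundant marker of each in WT was, in the same order, *Cd5l* (213 CPM), *Col3a1* (217), *Cdh5* (84.7) and *Spp1* (2980). *Spp1* thus lay below *Alb* and *Apob* (5845 CPM in WT) and above the other hepatocyte markers, the highest of them *Fgb* at 2478 CPM in WT.

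*Selenop*, *Sephs2* and *Dio1* fell in WDR6-WKO hepatocytes with an adjusted p under 0.05. They were 3 of the 10 genes, and 0 of the 10 rose. Across all genes tested, 12.8% passed that threshold, 6.65% higher and 6.18% lower. The median log2 fold change was -0.05 over the 10 genes and 0.01 over all genes tested. The study's own rule for differential expression asks for an unadjusted p under 0.05 and a log2 fold change of 0.35 or more in either direction. The study applied it to DESeq2 results. Applied here to the edgeR fit, it called *Dio1* alone of the 10 genes, against 10.4% of all genes. The CPM ranges of the genotypes did not overlap for the same 3 genes, where 23.5% of all genes tested had separate ranges. Scaled by library size alone, 1212 genes of the whole table were higher and 696 lower, against 983 and 914 with TMM. The 3 calls were the same under that scaling.

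**Figure D2:**
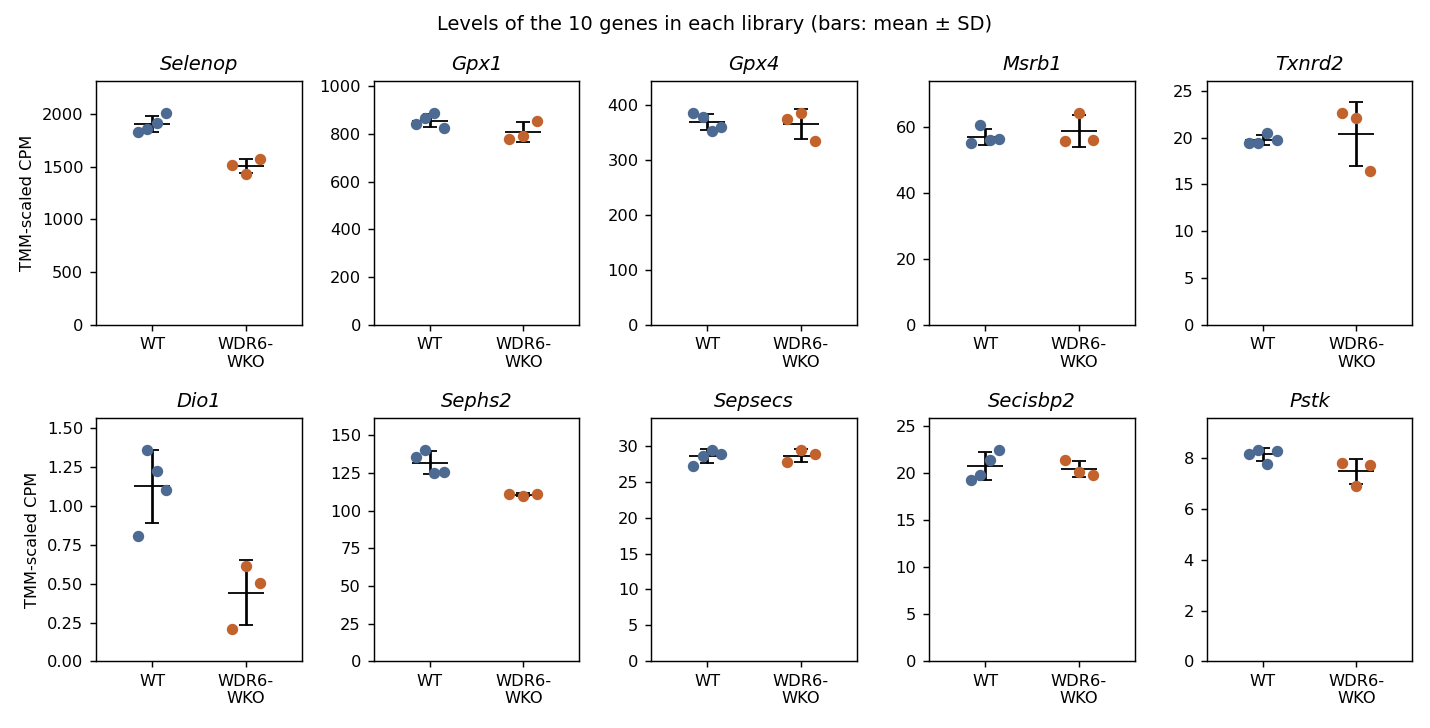
Each panel shows TMM-scaled CPM of 1 gene on an axis from 0, with 1 point per library (4 WT, 3 WDR6-WKO) and the mean ± SD. The points of both genotypes are separate for *Selenop*, *Sephs2* and *Dio1* and overlap for the other 7 genes.

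*Selenop* encodes selenoprotein P and lies on the plus strand at chr15:3268547-3280508 (GRCm38). It was the most abundant of the 10 genes, at rank 39 of all genes tested by mean CPM. Its levels were 1832, 1861, 1920 and 2013 CPM in WT replicates 1 to 4 and 1519, 1433 and 1572 CPM in WDR6-WKO replicates 1 to 3. Every WDR6-WKO library was below every WT library. The mean fell by 20.9%, from 1907 ± 80.1 (SD, n = 4) to 1508 ± 70.2 CPM (SD, n = 3), a change of -0.34 ± 0.05 (SE) on the log2 scale (95% interval -0.44 to -0.23, edgeR adjusted p = 0.000285). When any single library was dropped, the edgeR adjusted p stayed between 9.15e-08 and 0.00240 and the log2 value between -0.37 and -0.30. Over all 35 assignments of the libraries to groups, an exact permutation test (two-sided, on log2 CPM) had p = 0.0286, its lower limit for groups of 4 and 3. Exons of *Ccdc152* on the opposite strand overlap those of *Selenop* by 439 bases, and the strand of the counted reads is not stated. *Ccdc152* stood at 9.09 CPM in WT and 7.13 CPM in WDR6-WKO, far below *Selenop*.

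Hepatocytes secrete selenoprotein P together with many other plasma proteins, and the levels of hepatocyte markers are therefore given beside it. Of the 10 hepatocyte markers, 6 (*Apoa1*, *Cps1*, *Fgb*, *Hnf4a*, *Tdo2* and *Asgr1*) were lower with an adjusted p under 0.05, 0 were higher, and none was at 0 in either group. Their median log2 fold change was -0.44, and their summed level was 15601 to 18573 CPM in WT and 14039 to 16058 CPM in WDR6-WKO libraries. As log2 differences from the WT mean, the median hepatocyte marker stood at -0.27, -0.40 and -0.49 in WDR6-WKO replicates 1 to 3, and *Selenop* at -0.33, -0.41 and -0.28. *Sephs2* stood at -0.24, -0.27 and -0.24 in the same libraries. Among the 12 Kupffer cell markers, 3 (*C1qb*, *C1qc* and *Lyz2*) were higher and 0 lower. Of all genes tested, 6.65% were higher and 6.18% lower. The Kupffer markers had a median log2 fold change of 0.23 and a summed level of 860 to 939 CPM in WT and 993 to 1191 CPM in WDR6-WKO. The log2 fold change was positive for 11 of them and -0.48 for *Timd4* (edgeR adjusted p = 0.0880). Their median difference from the WT mean was 0.17, 0.31 and 0.055 in WDR6-WKO replicates 1 to 3. In WT replicate 4 it was 0.063, so WDR6-WKO replicate 3 lay within the WT range. Among the 5 cholangiocyte markers *Sox9* and *Spp1* were higher, among the 8 stellate cell markers *Acta2* was higher, and among the 8 endothelial markers *Tek* was lower. Of the 5 erythrocyte markers *Alas2* was tested, at 2.25 and 2.54 CPM. The part of these shifts in the lower levels of *Selenop*, *Sephs2* and *Dio1* was not tested. In bulk samples fewer cells of a type and less RNA per cell cannot be told apart.

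*Sephs2* encodes selenophosphate synthetase, which makes the selenium donor, and lies on the minus strand at chr7:127271879-127274055. Its levels were 136, 141, 125 and 126 CPM in WT replicates 1 to 4 and 111, 109 and 111 CPM in WDR6-WKO replicates 1 to 3. The 3 WDR6-WKO libraries were close to each other and all below WT. The mean fell by 16.1%, from 132 ± 7.70 (SD, n = 4) to 111 ± 0.979 CPM (SD, n = 3), with a change of -0.25 ± 0.05 (SE) on the log2 scale (95% interval -0.37 to -0.14, edgeR adjusted p = 0.00614). When any single library was dropped, the edgeR adjusted p was 0.000223 to 0.0313. The exact permutation test gave p = 0.0286. An annotated transcript of unknown kind, *Gm44729*, lies opposite 792 bases of *Sephs2*, and without the strand of the reads reads from it could be counted with *Sephs2*.

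*Dio1* encodes the type 1 iodothyronine deiodinase, a selenoenzyme of liver and kidney that converts thyroxine to its active form, and lies on the minus strand at chr4:107291465-107307169. It was close to the detection limit in these cultures. The raw counts were 16, 26, 23 and 22 reads in WT replicates 1 to 4 and 5, 13 and 9 reads in WDR6-WKO replicates 1 to 3. Levels were 0.807 to 1.36 CPM in WT and 0.208 to 0.614 CPM in WDR6-WKO, without overlap. The mean fell by 60.7%, from 1.12 ± 0.236 (SD, n = 4) to 0.442 ± 0.210 CPM (SD, n = 3), and the change was -1.37 ± 0.38 (SE) on the log2 scale (95% interval -2.17 to -0.57, edgeR adjusted p = 0.0258). This call rested on single libraries. The adjusted p in the edgeR test was 0.0740 without WT replicate 2, 0.0637 without WT replicate 3, 0.0581 without WT replicate 4 and 0.127 without WDR6-WKO replicate 1. The direction was the same in each case, with log2 fold changes between -1.71 and -0.99 over the 7 fits. The exact permutation test gave p = 0.0286.

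The other 4 selenoenzymes did not pass the test. *Gpx1*, which encodes the cytosolic glutathione peroxidase, lies on the plus strand at chr9:108338903-108340343, 231967 bases from *Wdr6* on the same chromosome. Its levels were 839, 866, 888 and 825 CPM in WT replicates 1 to 4 and 776, 790 and 854 CPM in WDR6-WKO replicates 1 to 3. WDR6-WKO replicates 1 and 2 lay below all WT libraries and replicate 3 within their range. The log2 fold change was -0.08 (SE 0.05, 95% interval -0.19 to 0.02, edgeR adjusted p = 0.275). Without WDR6-WKO replicate 3 it was -0.13 and passed (edgeR adjusted p = 0.0153), in a fit where 4233 of 14796 genes passed.

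*Gpx4* encodes the glutathione peroxidase that reduces lipid hydroperoxides in membranes and thereby protects cells from ferroptosis (chr10:80047166-80056439, plus strand). It was at 386, 379, 353 and 360 CPM in WT replicates 1 to 4 and at 375, 386 and 334 CPM in WDR6-WKO replicates 1 to 3. The ranges overlapped, with the lowest value of all in WDR6-WKO replicate 3. The log2 fold change was -0.02 (95% interval -0.13 to 0.10, edgeR adjusted p = 0.890). Of the 50-base sequences of its transcript, 68.9% also occur in other annotated genes, chiefly the pseudogene *Gpx4-ps2*, so part of its reads could have been assigned elsewhere.

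*Txnrd2*, the mitochondrial thioredoxin reductase (chr16:18426384-18479073, plus strand), was at 19.4 to 20.5 CPM in WT and at 22.6, 22.1 and 16.5 CPM in WDR6-WKO replicates 1 to 3. WDR6-WKO replicates 1 and 2 lay above all WT libraries and replicate 3 below them. The log2 fold change was 0.05 (95% interval -0.16 to 0.27, edgeR adjusted p = 0.790) with all libraries and 0.18 without WDR6-WKO replicate 3 (adjusted p = 0.103). *Msrb1*, which reduces oxidized methionine in proteins (chr17:24736642-24742778, plus strand), was at 55.1 to 60.7 CPM in WT and at 56.0, 64.4 and 56.2 CPM in WDR6-WKO replicates 1 to 3. The groups overlapped, and the log2 fold change was 0.04 (95% interval -0.10 to 0.18, edgeR adjusted p = 0.719).

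The 3 genes of selenocysteine synthesis and insertion that encode no selenoprotein did not pass the test either. *Pstk*, the kinase of seryl-tRNA (chr7:131371141-131394482, plus strand), was at 7.76 to 8.33 CPM in WT and at 7.81, 6.90 and 7.71 CPM in WDR6-WKO replicates 1 to 3. Its log2 fold change of -0.12 had a 95% interval of -0.36 to 0.11 (edgeR adjusted p = 0.516). *Sepsecs*, the synthase that completes selenocysteine (chr5:52640087-52669708, minus strand), was at 27.2 to 29.5 CPM in WT and at 27.7 to 29.4 CPM in WDR6-WKO. Its log2 fold change was 0.00 (95% interval -0.14 to 0.15, edgeR adjusted p = 0.975). *Secisbp2*, the SECIS binding protein (chr13:51651697-51684044, plus strand), was at 19.3 to 22.5 CPM in WT and at 19.9 to 21.4 CPM in WDR6-WKO, with a log2 fold change of -0.02 (95% interval -0.19 to 0.16, edgeR adjusted p = 0.916). For *Sepsecs* and *Secisbp2* all WDR6-WKO libraries fell inside the WT range. Exons of *Ikzf5* overlap the annotated exons of *Pstk* on the opposite strand by 4652 bases, and *Ikzf5* was counted at 1.35 CPM in WT.

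Levels of different genes were compared per kilobase of annotated exon. In WT the order was *Selenop* at 671 CPM per kilobase, *Gpx1* at 593, *Gpx4* at 214, *Sephs2* at 60.5, *Msrb1* at 45.4, *Txnrd2* and *Secisbp2* at 4.49 each, *Sepsecs* at 4.09, *Pstk* at 1.03 and *Dio1* at 0.571. The ranges of neighbours in this order were separate, except that *Txnrd2*, *Secisbp2* and *Sepsecs* overlapped in turn. In WDR6-WKO *Gpx1* stood at 560 and *Selenop* at 531 CPM per kilobase, with overlapping ranges, and the places of the other 8 genes were as in WT. The place of *Pstk* rested on the length used, since its annotated exons cover 7914 bases and its coding transcript 1135. Per kilobase of coding transcript *Pstk* was at 7.17 CPM in WT, next to *Txnrd2* at 6.88 with an overlapping range and above *Secisbp2* at 6.24 and *Sepsecs* at 5.43. *Sephs2* (50.3 to 51.1 CPM per kilobase of exon) and *Msrb1* (44.5 to 51.2) also overlapped in WDR6-WKO.

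**Figure D3:**
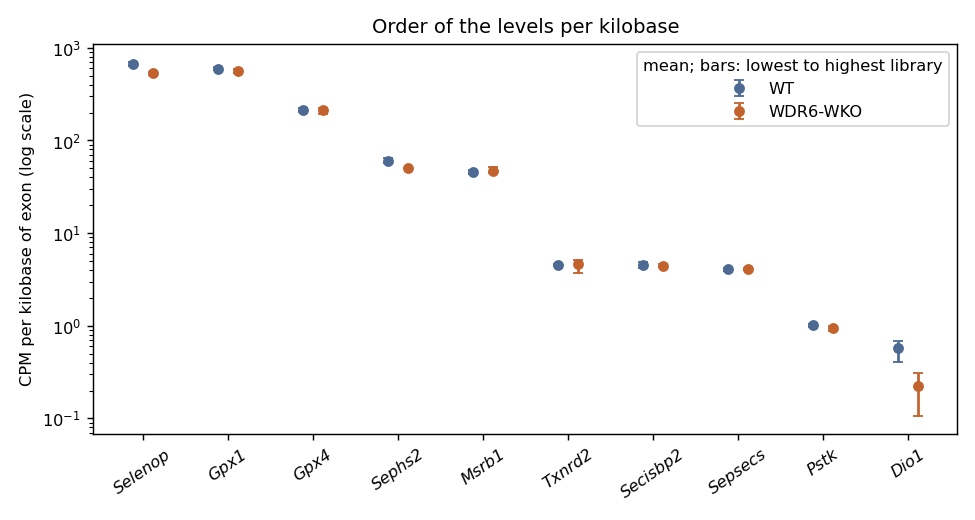
The vertical axis is CPM per kilobase of exon on a log scale, and the points are means of WT (n = 4) and WDR6-WKO (n = 3) with bars from the lowest to the highest library. *Selenop* is above *Gpx1* in WT (671 against 593), and the bars of both genes overlap in WDR6-WKO.

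Selenoprotein mRNA was also described as a pool. Of the 24 annotated selenoprotein genes, 20 were tested. The other 4 (*Gpx2*, *Dio2*, *Dio3* and *Selenov*) had no row in the table of counts under the symbols searched. The summed level of the 20 was 2115 to 2146 CPM per kilobase in WT and 1950 to 2003 in WDR6-WKO libraries. Without *Selenop* the sums overlapped, at 1425 to 1491 in WT and 1416 to 1485 in WDR6-WKO. *Selenop* made up 31.4% ± 1.28 of this pool (SD, n = 4) in WT and 26.8% ± 1.26 (SD, n = 3) in WDR6-WKO. Weighted by the number of selenocysteine codons per transcript, *Selenop* carried 82.1% ± 0.855 of the selenocysteine codons of the pool in WT and 78.5% ± 1.10 in WDR6-WKO. These shares describe mRNA, not the amount of selenocysteine that was incorporated.

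Most selenoproteins outside the 10 genes did not pass the test. Of 17, 13 were tested and 10 of these did not pass, while 1 was higher (6.65% of all genes) and 2 were lower (6.18% of all genes). The median log2 fold change was 0.01, as over all genes. *Gpx3*, which encodes the plasma glutathione peroxidase, rose from 42.7 to 50.5 CPM, a change of 0.24 ± 0.06 (SE) on the log2 scale (edgeR adjusted p = 0.0212). *Selenoi*, a phospholipid synthesis enzyme, fell by 0.18 on the log2 scale (edgeR adjusted p = 0.0450), and *Selenon*, a protein of the endoplasmic reticulum, fell by 0.21 (adjusted p = 0.0392). *Txnrd1*, the cytosolic thioredoxin reductase and the most abundant of the 13, was at 797 CPM in WT and 842 CPM in WDR6-WKO (edgeR adjusted p = 0.260). Over all 20 selenoprotein genes tested, 5 were lower, 1 was higher and 14 did not pass, with a median log2 fold change of -0.02.

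Some selenoprotein mRNAs are known to fall first when selenium or its insertion is limiting, and 4 such genes were listed. With all libraries, none of *Gpx1*, *Msrb1*, *Selenoh* and *Selenow* passed the threshold. *Gpx1* had a log2 fold change of -0.08 (edgeR adjusted p = 0.275) and *Msrb1* of 0.04 (edgeR adjusted p = 0.719). *Selenoh* had a log2 fold change of 0.12 (SE 0.09, adjusted p = 0.439) and *Selenow* of 0.28 (SE 0.11, adjusted p = 0.115) in the edgeR test. The median of the 4 was 0.08. Without WDR6-WKO replicate 3, *Gpx1* was at -0.13 and passed (edgeR adjusted p = 0.0153), in a fit where 4233 of 14796 genes passed. *Msrb1* was at 0.07 in that fit and did not pass (edgeR adjusted p = 0.415). *Selenoh* and *Selenow* were not read in it.

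Among 11 further genes of the selenocysteine machinery, all tested, 9 did not pass, 2 were higher and 0 lower, where 12.8% of all genes passed. With so few genes this count does not set the group apart from the rest. *Sars1*, present under its older symbol *Sars*, encodes the seryl-tRNA synthetase that loads serine on the selenocysteine tRNA as well as on the serine tRNAs. It rose from 193 to 279 CPM, a change of 0.53 ± 0.06 (SE) on the log2 scale (edgeR adjusted p = 2.82e-05). *Ncl*, an abundant nucleolar protein that also binds SECIS elements, rose from 752 to 857 CPM, by 0.19 on the log2 scale (edgeR adjusted p = 0.0126). Both genes have functions outside selenium metabolism. *Eefsec*, the elongation factor for selenocysteine, had a log2 fold change of 0.06 (adjusted p = 0.682), and *Trnau1ap*, which associates with the selenocysteine tRNA, of 0.29 (adjusted p = 0.0645) in the edgeR test. The genes that modify the anticodon loop of this tRNA, *Trit1* and *Alkbh8*, had log2 fold changes of 0.20 (adjusted p = 0.159) and 0.03 (adjusted p = 0.903) in the same test. The median of the 11 genes was 0.07.

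**Figure D4:**
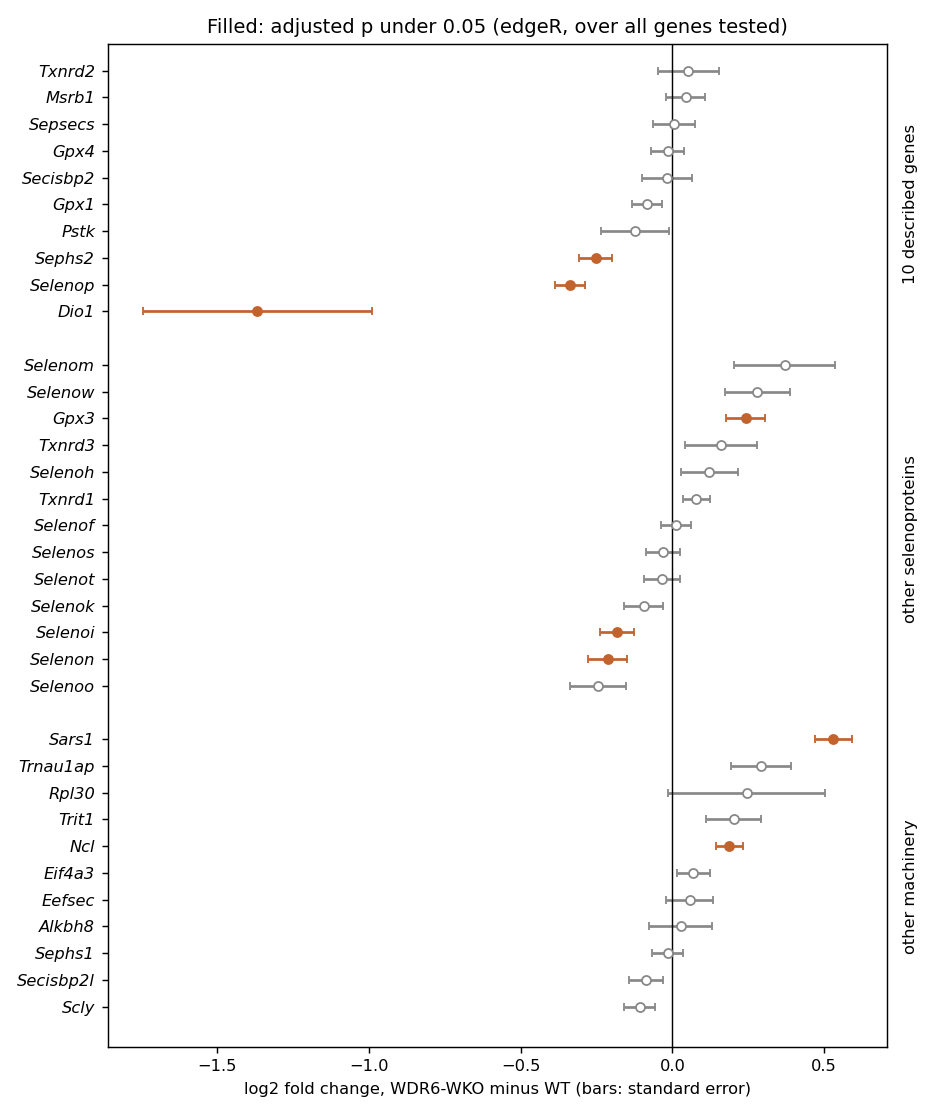
The horizontal axis is the log2 fold change of WDR6-WKO against WT with its standard error, for the 10 described genes, 13 other selenoproteins and 11 other machinery genes, and filled points have an adjusted p under 0.05. Filled points lie at -0.34 for *Selenop*, -0.25 for *Sephs2* and -1.37 for *Dio1*, and among the other genes on either side of 0.

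Cells take up selenoprotein P through receptors of the LDL receptor family. Of 3 receptor genes, *Lrp1*, the most abundant at 940 CPM in WT, fell by 0.19 on the log2 scale (SE 0.05, edgeR adjusted p = 0.0235). *Lrp8* and *Lrp2* did not pass, with log2 fold changes of 0.09 (adjusted p = 0.501) and -0.03 (adjusted p = 0.945) in the same test.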

How the data were processed

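The authors aligned reads of 7 hepatocyte libraries to the mouse genome (mm10) with Bowtie2 2.2.3, as the paper's methods and the submitters' processing notes state, and deposited unnormalized counts of reads, 1 row per gene symbol. The counting tool, annotation and strand setting are not given in the sources used here. Columns were matched to samples by genotype and replicate number. From the counts, edgeR 4.0.16 (R 4.3.3) with TMM scaling, its expression filter and its robust quasi-likelihood test gave log2 fold changes for 14779 genes, and p-values were adjusted over all of them. Intervals use the test's degrees of freedom. Exact permutation tests used log2 CPM with a prior count of 2. The 14819 rows include 21 with spreadsheet dates in place of symbols. On simulated counts the test recovered 144 of 197 altered genes among 14700, 58 of 99 at an absolute log2 fold change of 0.5, with 12 false calls. The simulation held no library that stood apart as WDR6-WKO replicate 3 did. Its smallest change, 0.5, was larger than those of *Selenop* and *Sephs2*, so these rates do not describe those calls.

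Alternatives were DESeq2 1.42.0, limma-voom (limma 3.58.1), other scalings and filters, a replicate block, each library left out and the study's rule for calls. Named were all 10 genes and, in each other list, the genes with an adjusted p under 0.05 and the most abundant one, beside further members of the selenium lists for their role. The genes and lists were chosen with earlier results of these data known. Transcripts, coordinates and selenocysteine codons came from GENCODE M21 (GRCm38, the build of mm10), and sequences from its transcript file. A window holds 12 bases before and 15 after the codon.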

Additional observations from a re-analysis of the deposited data

How the results depend on the processing

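*Selenop* and *Sephs2* kept their direction and an adjusted p under 0.05 under all 14 alternatives run for each, with log2 fold changes between -0.37 and -0.30 for *Selenop* and between -0.28 and -0.22 for *Sephs2*. *Dio1* was lower in all 13 alternatives that tested it and missed the threshold in 4, each with 1 library left out. A filter of at least 10 counts in every sample removed *Dio1*, and 2 of the 10 genes were then called. The count of called genes among the 10 was 1 by the study's rule, which *Selenop* misses at a log2 fold change of -0.34, and 2 to 4 with each library left out. Over all genes the count was 1032 to 4233 with each library left out, the highest without WDR6-WKO replicate 3, and the cause was not tested. Log2 fold changes near 0 changed sign without a call. *Sepsecs* was at -0.00044 with DESeq2 and -0.00031 with median-of-ratios size factors, *Gpx4* at 0.011 and *Secisbp2* at 0.0082 with library sizes alone, and *Secisbp2* at 0.024 with the replicate block. With each library left out, the log2 fold change ranged from -0.058 to 0.041 for *Gpx4*, -0.034 to 0.18 for *Txnrd2*, -0.027 to 0.076 for *Msrb1*, -0.058 to 0.023 for *Secisbp2* and -0.017 to 0.026 for *Sepsecs*. In the fit with the replicate number as a block, 1762 genes and the same 3 of the 10 were called. The labels give no more than a replicate number, so whether same-numbered samples belong together cannot be told. Deviations of same-numbered samples correlated at 0.04, 0.02 and 0.04 across genes, and 1 of the 3 WDR6-WKO libraries correlated best with its own number. The order of levels per kilobase was the same for all 10 genes with the longest annotated transcript in place of all exons. With the coding transcript, a length chosen after seeing the data, 6 of the 10 genes kept their place in WT and *Pstk* moved from place 9 to 6. The *Selenop* share of the pool was then 29.3% in WT and 24.8% in WDR6-WKO, and its share of selenocysteine codons 80.5% and 76.7%, so that both stayed lower in WDR6-WKO. Depth limits *Dio1* most, at 5 to 26 reads per library.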

Other observations

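Single genes next to 3 of the selenoenzymes also differed between the genotypes, in lists whose medians lay between -0.06 and -0.02 on the log2 scale. Of all genes tested 12.8% passed the same threshold. GPX4 uses glutathione, whose synthesis needs cystine taken up by the transporter of SLC7A11 and SLC3A2. Of 8 genes of lipid peroxide defence listed around *Gpx4*, 2 rose and 2 fell at edgeR's adjusted threshold of 0.05. *Slc3a2* rose from 137 to 224 CPM (log2 fold change 0.71, SE 0.06) and *Slc7a11* from 154 to 228 CPM (0.56, SE 0.06), while *Gpx4* itself had a log2 fold change of -0.02. *Gclc*, the catalytic subunit of the rate-limiting enzyme of glutathione synthesis and the most abundant of the 8 at 2513 CPM in WT, fell by 0.28 on the log2 scale (SE 0.05, edgeR adjusted p = 0.00147). *Lpcat3*, which places polyunsaturated fatty acids in phospholipids, fell by 0.28 (SE 0.05, adjusted p = 0.000923 in the same test). Opposite directions therefore occurred within the list, and its median log2 fold change was -0.03.

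Around *Dio1*, 7 genes of thyroid hormone transport and response were tested, and 1 was lower. *Me1*, malic enzyme, a known target of thyroid hormone and the most abundant of the 7, fell from 568 to 490 CPM (log2 fold change -0.21, SE 0.06, edgeR adjusted p = 0.0251). *Thrsp*, another target, was at 4.45 CPM in WT and 5.32 CPM in WDR6-WKO (adjusted p = 0.238), and the receptor gene *Thrb* was at 38.5 and 39.0 CPM (edgeR adjusted p = 0.901).

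Of 8 genes for cysteine-based counterparts and partners of selenoenzymes, 1 was higher and 1 was lower. *Msrb3*, a methionine sulfoxide reductase that uses cysteine in place of selenocysteine, fell from 56.6 to 44.7 CPM (log2 fold change -0.34, SE 0.07, edgeR adjusted p = 0.00282), while the selenoenzyme *Msrb1* had a log2 fold change of 0.04. The difference between the fold changes of these reductases was not tested. *Txn2*, mitochondrial thioredoxin and the substrate of TXNRD2, rose from 133 to 158 CPM (log2 fold change 0.24, SE 0.06, edgeR adjusted p = 0.0148). *Gsr*, glutathione reductase and the most abundant of the 8, was at 581 CPM in WT and 559 CPM in WDR6-WKO (adjusted p = 0.449 in the same test).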
